A study of Mus musculus with 2 samples.

Results

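Collagen genes were followed in a table of counts per gene from mouse ovary. Their members were the rows whose symbol is Col, then 1 or 2 digits, then a and a digit, which gave 44 of 24421 rows. Col4a3bp starts the same way but encodes a lipid transfer protein, so it was left out. There were 2 libraries, each of total RNA depleted of ribosomal RNA and drawn from ovaries of untreated C57BL/6J mice aged 8 weeks. The first library was from wild-type mice and the second from H19 knockouts (H19KO, allele labelled H19(Δ3)), which lack an imprinted long noncoding RNA. The study asked which ovarian genes are under the control of H19. The labels do not give the number of mice behind each library, nor the cells that make up the tissue.

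Collagens are secreted proteins whose alpha chains wind around each other into a rope-like helix, and they are the main structural proteins of the extracellular matrix. Fibrillar collagens form the banded fibres of connective tissue, type IV forms the sheet of basement membranes, type VI forms beaded filaments near cells, and the FACIT collagens sit on the surface of fibrils. In the ovary, fibrillar collagens lie mainly in the stroma, the theca and the outer tunica. A basement membrane with type IV collagen separates the granulosa cells of each follicle from the theca.

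With 1 library per genotype, differences have no replicate check, and p-values are not reported. Each log2 ratio is of the knockout over the wild-type library and carries its exact binomial 95% interval in brackets. That interval covers counting error only, not differences between mice or preparations. A gene is called higher or lower where its whole interval lies on that side of equality. Levels are in CPM, a count relative to the library total after scaling. The libraries held 23335131 (wild type) and 23041225 (knockout) counts, and H19 had 672 and 0 counts. A count of 0 allows up to 3 counts, so H19 was at least 223-fold lower, as the genotype label states.

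The collagen genes together took a slightly larger part of the knockout library. The fibrillar share of their counts was larger there too, mainly through Col3a1. They held 138816 wild-type counts, or 0.595% of the library (0.592 to 0.598), and 147569 knockout counts, or 0.640% (0.637 to 0.644). Without Col3a1 the direction of this difference turned: the other 37 genes of at least 1 CPM summed to 4772 CPM in wild type and 4612 in knockout (log2 ratio -0.05, -0.06 to -0.04). Of the 44 genes, 38 had a mean of at least 1 CPM. Of these, 7 were higher (18.4%, against 22.2% of the 13906 genes tested) and 11 were lower (28.9%, against 24% of genes tested). Both shares were near the background. The median log2 ratio of the 38 was 0.02, beside -0.01 for all genes tested, and the middle of the distribution, from its 25th to its 75th percentile, ran from -0.14 to 0.24.

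Abundant genes are called more readily, because their intervals are narrow. Of the 17 collagen genes whose mean level reached 50 CPM, 4 were higher (23.5%), against 29.4% of all 4936 genes of that level. A further 8 were lower (47.1%), against 32% of those genes. A whole interval beyond 1.5-fold was reached by 1 collagen gene upwards, Col6a5 (1.8% of genes tested), and 1 downwards, Col11a1 (1.21%). Both lay at the edge of that limit: Col6a5 fell short of it under median-of-ratios scaling and Col11a1 under total count scaling. None of the 38 lay beyond 2-fold, where 0.611% of genes tested were higher and 0.388% lower. Among the 17 genes of 50 CPM or more, 0 lay above and 1, Col11a1, below 1.5-fold, against 1.22% and 0.912% of all genes of that level, and 0 beyond 2-fold, against 0.324% above and 0.142% below.

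**Figure D1:**
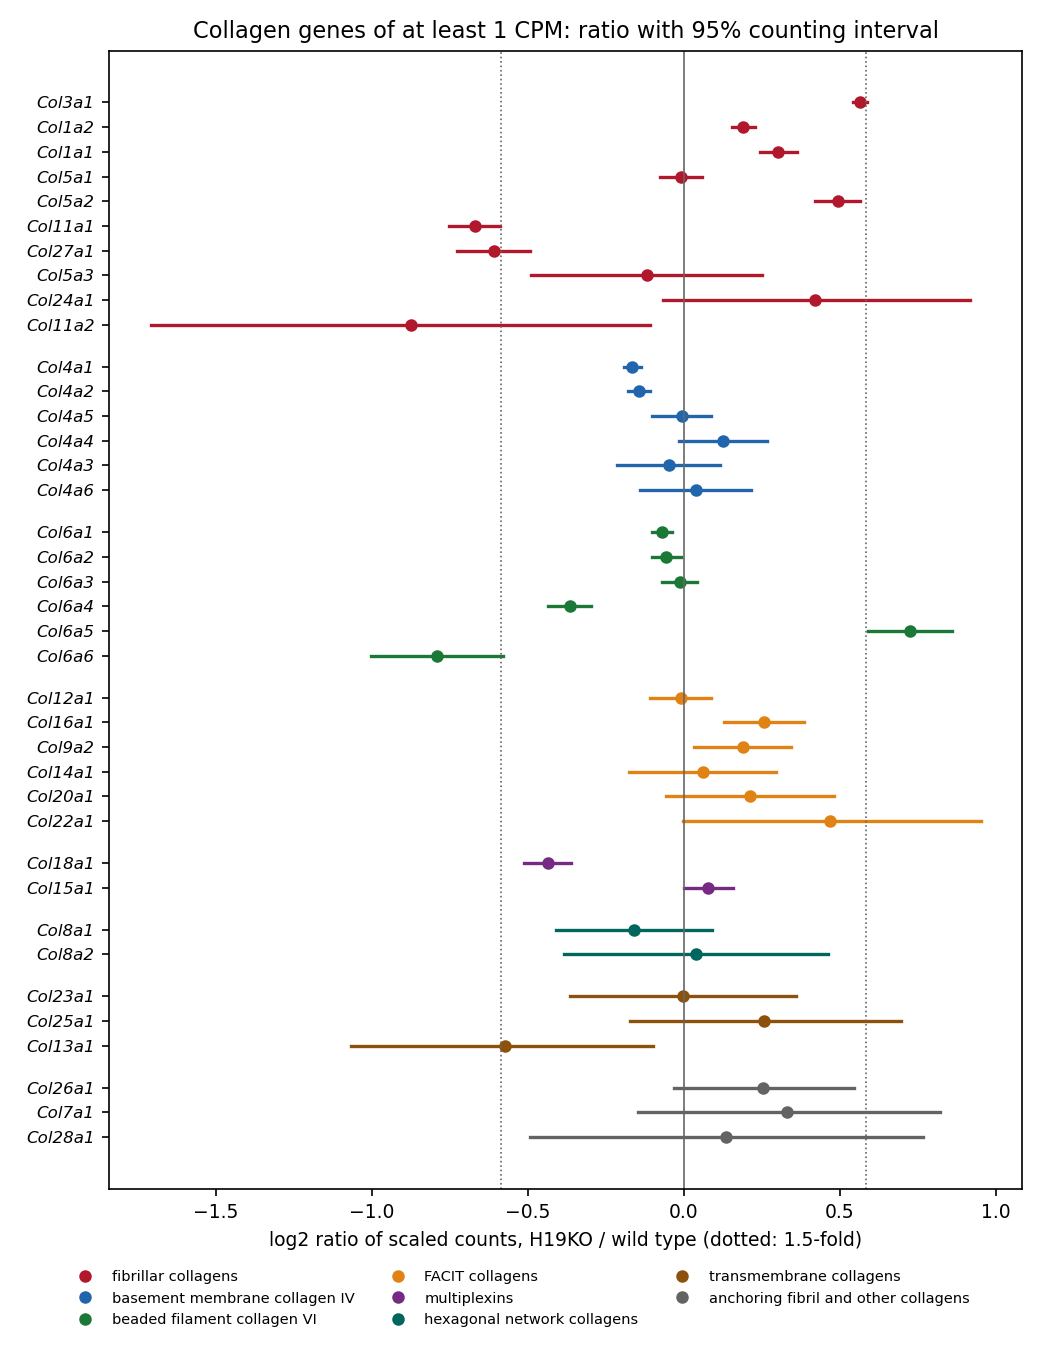
Log2 ratio of scaled counts, knockout over wild type, for the 38 collagen genes of at least 1 CPM, grouped and coloured by class; points are ratios, bars are 95% counting intervals, and dotted lines mark 1.5-fold. Within the fibrillar class Col3a1, Col5a2, Col1a1 and Col1a2 lie right of 0 and Col11a1, Col27a1 and Col11a2 left of it; Col6a5 and Col6a6 are the outermost genes of type VI.

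The promoters of 4 genes are shown because they give the DNA next to the starts of well-counted genes that went opposite ways: Col3a1 and Col6a5 were higher in the knockout library, Col11a1 and Col27a1 lower. Sequences are the 250 bases before the annotated start, 5′ to 3′ on the strand of the gene, from RefSeq on GRCm38.p6. Capitals mark a TATA box (TATAAA), a GC box (GGGCGG) or a CCAAT box (CCAAT), each searched on both strands, so that ATTGG is a CCAAT box on the other strand. The windows are chr1:45311288-45311537 (plus strand) for Col3a1, chr9:105960644-105960893 (minus) for Col6a5, chr3:114030290-114030539 (plus) for Col11a1 and chr4:63215162-63215411 (plus) for Col27a1. None overlaps an annotated exon of its gene. The Col27a1 window follows the RefSeq start, which lies inside the longer GENCODE gene.
Col3a1: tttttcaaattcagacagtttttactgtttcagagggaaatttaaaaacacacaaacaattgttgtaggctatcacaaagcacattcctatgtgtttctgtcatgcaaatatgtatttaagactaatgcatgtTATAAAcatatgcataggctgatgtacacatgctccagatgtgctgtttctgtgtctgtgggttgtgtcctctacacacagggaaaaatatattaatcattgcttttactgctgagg
Col6a5: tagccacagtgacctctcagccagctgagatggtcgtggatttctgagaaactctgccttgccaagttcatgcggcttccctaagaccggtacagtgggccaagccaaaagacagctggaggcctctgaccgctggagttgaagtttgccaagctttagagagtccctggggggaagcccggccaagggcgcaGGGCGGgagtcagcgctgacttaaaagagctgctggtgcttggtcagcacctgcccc
Col11a1: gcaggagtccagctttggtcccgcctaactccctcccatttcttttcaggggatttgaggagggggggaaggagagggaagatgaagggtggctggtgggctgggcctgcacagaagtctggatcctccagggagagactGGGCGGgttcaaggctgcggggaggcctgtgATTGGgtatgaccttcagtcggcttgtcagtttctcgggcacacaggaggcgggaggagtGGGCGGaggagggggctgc
Col27a1: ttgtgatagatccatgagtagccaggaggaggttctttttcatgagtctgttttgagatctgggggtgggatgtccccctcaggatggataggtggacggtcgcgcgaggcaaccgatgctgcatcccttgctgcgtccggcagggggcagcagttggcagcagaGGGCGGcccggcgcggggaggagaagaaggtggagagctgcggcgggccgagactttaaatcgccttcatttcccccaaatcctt

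The Col3a1 window held a TATA box and neither of the other motifs, and it was poor in G and C (35.2%). That TATAAA match began 117 bases before the annotated start. The windows of Col6a5, Col11a1 and Col27a1 each held a GC box and were 58.8%, 62.4% and 59.6% G and C. Promoters were found for 35 of the 44 collagen genes. Of these, 21 (60.0%) held a GC box, 13 (37.1%) a CCAAT box and 5 (14.3%) a TATA box. A gene was counted where any of its windows held the motif. Over all 27025 genes of the RefSeq table, counted the same way with windows of the same length, the shares were 35.4%, 37.5% and 14.3%. Both Col6a5, which was higher, and Col11a1 and Col27a1, which were lower, held a GC box. A match to these letters is a description of the sequence, not a site of binding.

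Levels of different genes were compared per kilobase (kb) of exon, because longer transcripts yield more fragments. Over the 38 genes the mean level spanned 764-fold, or 1186-fold by the longest protein-coding transcript of each gene. In the wild-type library Col6a1, a core chain of type VI, had the highest level at 153 CPM per kb, followed by Col4a1 of basement membranes at 130, Col3a1 at 122 and Col4a2 at 88.9. In the knockout library Col3a1 came first at 180 CPM per kb, ahead of Col6a1 at 145, Col4a1 at 116 and Col4a2 at 80.5. Neighbours among these top ranks did not overlap in their counting intervals. The change of first place depends on the length used: divided by the longest protein-coding transcript, Col3a1 was first in both libraries, at 215 and 318 CPM per kb, against 163 and 155 for Col6a1.

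The type I chains and Col6a2 followed. Col1a2 had 39.7 CPM per kb in wild type and 45.3 in knockout, Col6a2 38.8 and 37.3, and Col1a1 27.9 and 34.4. Col1a2 and Col6a2 overlapped in the wild-type library. By the coding transcript Col1a2 stood at 92.3 and 105, because the union of its annotated exons, at 12.4 kb, is far longer than that transcript, at 5.35 kb. A plateau near 18 CPM per kb held Col6a3, Col5a1 and Col15a1 in both libraries, with overlapping neighbours. Of the 37 neighbouring pairs in the order of levels, 21 overlapped in wild type and 20 in knockout, so the order of the middle and low ranks is not resolved by counting. The lowest of the 38 was Col11a2, at 0.257 and 0.138 CPM per kb.

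**Figure D2:**
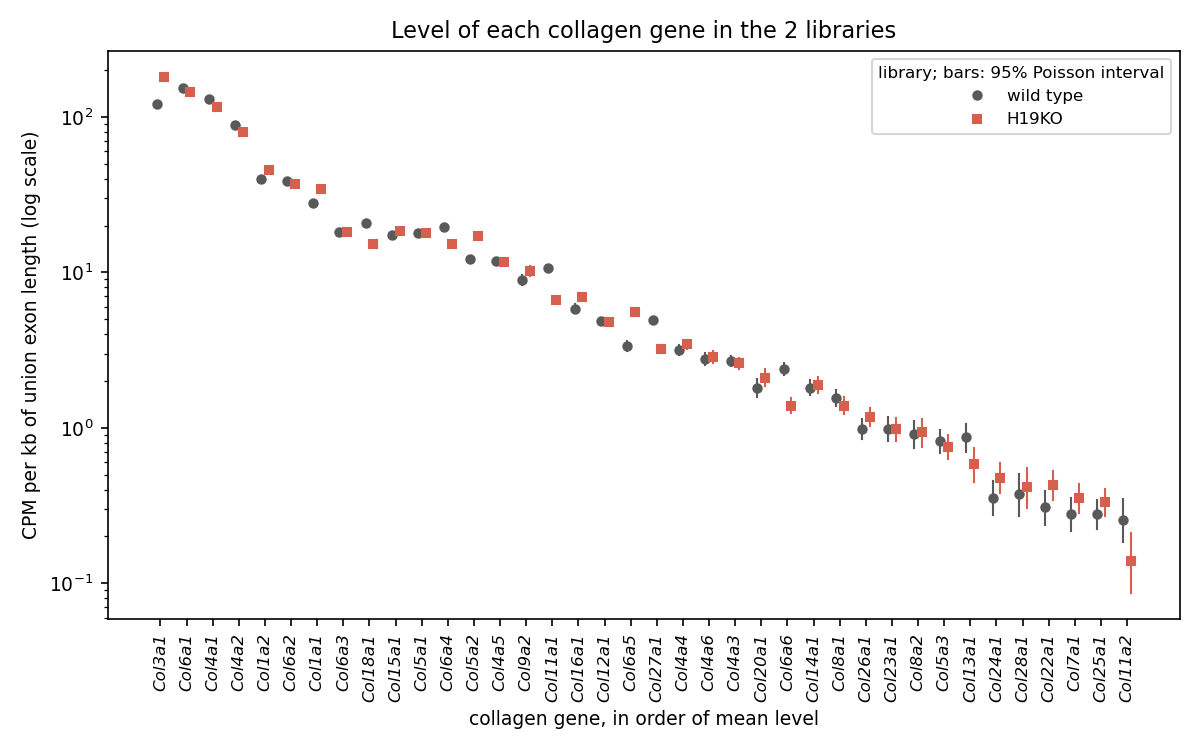
Level of each of the 38 collagen genes in CPM per kb of union exon length (log axis), wild type as circles and knockout as squares, with 95% Poisson counting intervals as bars, in order of mean level. Col3a1 sits at 122 in wild type and 180 in knockout, and levels run down to 0.257 and 0.138 for Col11a2.

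Among fibrillar collagens, Col3a1, Col5a2, Col1a1 and Col1a2 were higher in the knockout library, Col5a1 spanned equality, and Col11a1 and Col27a1 were lower. Of 11 genes, 10 had at least 1 CPM, with 4 higher, 3 lower and 3 spanning equality. Over all genes tested 22.2% were higher and 24% lower (29.4% and 32% at 50 CPM or more). Among the lower genes, Col11a2 reached 1 CPM only through the wild-type library. The median log2 ratio was 0.09, beside -0.01 for all genes tested. Without Col3a1 it was -0.01, with 3 genes higher and 3 lower. The class summed to 2352 CPM in wild type and 3010 in knockout (log2 ratio 0.36, 0.34 to 0.37). Without Col3a1 the sums were 1156 and 1242 CPM (log2 ratio 0.10, 0.08 to 0.13), so the size of the summed difference rests mainly on Col3a1. The mean over the 10 members was -0.03, of opposite sign to their median of 0.09.

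Col3a1 encodes the single chain of type III collagen, the reticular fibre of soft organs. It had 27804 counts (1196 CPM) in wild type and 40865 (1767 CPM) in the knockout (log2 ratio 0.56, 0.54 to 0.59). It had the largest count of any collagen gene in both libraries, with 20.0% of wild-type and 27.7% of knockout collagen counts. Col5a2, a chain of the type V collagen that nucleates fibrils, had 2727 and 3817 counts (log2 ratio 0.49, 0.42 to 0.56). Col3a1 and Col5a2 are neighbours on chromosome 1, tail to tail with 24.6 kb between them (GRCm38, chr1:45311538-45349706, plus strand, and chr1:45374321-45503282, minus strand). Ratios of counts between genes are given to compare the libraries, since gene lengths differ. For Col3a1 to Col5a2 this ratio was 10.2 in the wild type (9.80 to 10.6) and 10.7 in knockout (10.4 to 11.1).

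Type I collagen, the main fibre of skin, bone and tendon, is built from the chains of Col1a1 (chr11:94936224-94953042, plus strand) and Col1a2 (chr6:4504814-4541544, plus strand). Col1a1 had 4259 and 5226 counts (log2 ratio 0.30, 0.24 to 0.36). Col1a2 had 11482 and 13030 counts (log2 ratio 0.19, 0.15 to 0.23). Both were higher, by less than Col3a1. Within a library, where scaling plays no part, Col1a1 stood at 0.153 of the Col3a1 count in the wild type (0.148 to 0.158) and at 0.128 in the knockout (0.124 to 0.132).

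Markers of stromal cells were higher beside these genes. In a whole ovary, more or fewer cells of a type cannot be told apart from more or less RNA per cell. Fibroblast and stroma markers were listed with earlier results of these data known. Of 8 such markers, 7 had at least 1 CPM and all 7 were higher, against 22.2% of genes tested (29.4% at 50 CPM or more). These 7 had a median log2 ratio of 0.45 and a sum of 1130 CPM in wild type and 1604 in knockout. Among them the proteoglycan genes Dcn and Lum stood at log2 ratios of 0.63 (0.59 to 0.66) and 0.69 (0.60 to 0.77), Pdgfra 0.45, Fn1 0.07 and Dpt 1.01 (0.76 to 1.28). These moved with Col3a1, Col5a2, Col1a1 and Col1a2, and their part in that result was not tested. Smooth muscle and pericyte markers were mixed, with 5 of 8 higher, 3 lower (22.2% and 24% of genes tested) and sums of 1593 and 1886 CPM. Acta2, Myh11, Tagln, Cnn1 and Des were the higher ones, and Pdgfrb, Rgs5 and Cspg4 the lower ones.

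Col5a1, the other main chain of type V, stood apart from Col5a2. It had 3538 and 3495 counts (log2 ratio -0.01, -0.08 to 0.06). The ratio of Col5a1 to Col5a2 counts was 1.30 in the wild type (1.23 to 1.36) and 0.916 in knockout (0.874 to 0.959). Their log2 ratios differed by 0.50 (0.40 to 0.60). Col5a3, a less abundant type V chain, had 130 and 119 counts and an interval that spanned equality.

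Col11a1, a type XI chain that nucleates cartilage fibrils and is related to type V, was the abundant fibrillar gene farthest lower. It had 3145 counts (135 CPM) in wild type and 1965 (85.0 CPM) in the knockout (log2 ratio -0.67, -0.75 to -0.59). Col11a1 lies at chr3:114030540-114220718 (plus strand). Col27a1, a fibrillar collagen known from cartilage (chr4:63214004-63334991, plus strand), had 1490 and 971 counts (log2 ratio -0.61, -0.73 to -0.49). Col11a2, the partner of Col11a1 in type XI, had only 41 and 22 counts (log2 ratio -0.88, -1.71 to -0.11), and reached 1 CPM only through the wild type. The ratio of Col11a1 to Col11a2 counts was 76.7 and 89.3, with overlapping intervals. Col24a1 had 63 and 84 counts, and its interval spanned equality. Col2a1, the main collagen of cartilage, had 2 and 3 counts. Of the 6 cartilage, bone and tendon markers 3 reached 1 CPM: the proteoglycan gene Acan had 66 and 151 counts, the transcription factor gene Sox9 96 and 96, and Ibsp 32 and 15. Comp, Bglap and Tnmd were below 1 CPM.

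Basement membrane collagen differed little, and the pair with the most counts, Col4a1 and Col4a2, was lower. All 6 type IV genes had at least 1 CPM, with none higher, 2 lower and 4 spanning equality (22.2% and 24% of genes tested were higher and lower), and a median log2 ratio of -0.03. Col4a1 and Col4a2 encode the chains present in nearly every basement membrane. Col4a1 had 22589 counts (971 CPM) and 20043 (867 CPM) (log2 ratio -0.16, -0.19 to -0.14). Col4a2 had 13688 and 12322 counts (log2 ratio -0.14, -0.18 to -0.11). These genes lie head to head on chromosome 8 (chr8:11198423-11312826, minus strand, and chr8:11312805-11449287, plus strand), and their annotated exons overlap by 22 bases on opposite strands. Their count ratio was 1.65 in the wild type (1.62 to 1.69) and 1.63 in knockout (1.59 to 1.66).

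The chains of more specialised basement membranes were near equal. Col4a3 and Col4a4, known for the filter of the kidney, lie 71 bases apart head to head on chromosome 1. Col4a3 had 624 and 600 counts and Col4a4 782 and 848, with log2 ratios of -0.05 (-0.21 to 0.12) and 0.12 (-0.02 to 0.27). Col4a5 and Col4a6, head to head on the X chromosome, had 1838 and 1820 and 516 and 527 counts. Their log2 ratios were -0.01 (-0.10 to 0.09) and 0.04 (-0.14 to 0.22). For each of these head-to-head pairs the difference between partners had an interval that spanned 0.

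Type VI collagen held genes that diverged widely from each other. Its classical chains, Col6a1, Col6a2 and Col6a3, were close to equal, while the later described chains Col6a4, Col6a5 and Col6a6 went apart. The median log2 ratio of the 6 genes was -0.06, with 1 higher and 4 lower, beside 22.2% and 24% of genes tested (29.4% and 32% at 50 CPM or more). Col6a1 had 15548 and 14724 counts (log2 ratio -0.07, -0.10 to -0.04), and Col6a2 had 7507 and 7179 (log2 ratio -0.06, -0.10 to -0.01). Under total count scaling the interval of Col6a2 spanned equality. Col6a3 had 5092 and 5016 counts (log2 ratio -0.01, -0.07 to 0.04). Col6a1 stood at 2.07 times the count of Col6a2 in wild type and 2.05 times in the knockout, with overlapping intervals.

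Col6a6, Col6a5 and Col6a4 form a cluster on chromosome 9, all on the minus strand, at chr9:105687809-105828160, chr9:105856078-105960643 and chr9:105989454-106096783. Gaps of 27.9 and 28.8 kb separate them. Each encodes an alternative to the third chain of type VI. Col6a5, in the middle, had 739 counts (31.8 CPM) in wild type and 1214 (52.5 CPM) in the knockout (log2 ratio 0.72, 0.59 to 0.86). It was the highest ratio of any collagen gene of at least 1 CPM. Col6a6 had 513 and 295 counts (log2 ratio -0.79, -1.002 to -0.581). Col6a4 had 3863 and 2982 counts (log2 ratio -0.365, -0.435 to -0.296).

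Neighbours in this cluster therefore went opposite ways in these libraries. For every count of Col6a6 there were 1.44 of Col6a5 in the wild type (1.29 to 1.62) and 4.12 in knockout (3.62 to 4.69). The log2 ratio of Col6a5 exceeded that of Col6a6 by 1.51 (1.27 to 1.76) and that of Col6a4 by 1.09 (0.94 to 1.24). Both pairs were chosen after their values were seen. Of 11 listed pairs of chains, most of them partners in a molecule, 10 had both genes at 1 CPM or more. In 3 of those 10 the difference between partners had an interval off 0 (Col1a1 with Col1a2, Col5a1 with Col5a2, and Col1a1 with Col3a1), and in 7 it spanned 0.

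FACIT collagens were level or slightly higher. Of 9 genes, 6 had at least 1 CPM, with 2 higher, none lower and 4 spanning equality (22.2% and 24% of genes tested were higher and lower), and a median log2 ratio of 0.20. Col16a1, a fibril-associated collagen, had 915 and 1087 counts (log2 ratio 0.26, 0.13 to 0.385). Col9a2, a chain of the cartilage type IX collagen, had 644 and 730 counts (log2 ratio 0.19, 0.03 to 0.34). Both partners in that molecule were below 1 CPM: Col9a1 had 0 and 1 counts and Col9a3 15 and 16. A count of 0 allows up to 0.129 CPM in the wild type. Col12a1, a collagen of dense connective tissue with the largest FACIT count, had 1716 and 1695 counts (log2 ratio -0.01, -0.11 to 0.09). Col14a1 had 296 and 307 counts, Col20a1 217 and 250, and Col22a1 66 and 91, all with intervals that spanned equality. Col19a1 had 7 and 25 counts, below the 1 CPM minimum.

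The multiplexins, which link basement membranes to the matrix beneath them, went apart. Col18a1, the source of the fragment endostatin (chr10:77052178-77166548, minus strand), had 3373 and 2480 counts (log2 ratio -0.44, -0.51 to -0.36). Col15a1 had 2576 and 2704 counts (log2 ratio 0.08, -0.0004 to 0.16). Per kb of exon Col18a1 stood above Col15a1 in wild type, at 20.7 against 17.4 CPM, and below it in knockout, at 15.3 against 18.4. The ratio of Col15a1 to Col18a1 counts was 0.764 (0.725 to 0.804) and 1.09 (1.03 to 1.15). This pair was also chosen after its values were seen.

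The remaining classes were of low level. Of the hexagonal network collagens, Col8a1, known from vessel walls and the eye, had 283 and 252 counts, Col8a2 95 and 97, and the growth plate gene Col10a1 16 and 8. Among the transmembrane collagens, Col13a1 had 93 and 62 counts (log2 ratio -0.57, -1.06 to -0.10), and was lower. Col23a1 had 131 and 130 counts, Col25a1 84 and 100, and Col17a1, a hemidesmosome protein of epithelia, 12 and 14. Col26a1 had 187 and 222 counts, Col28a1 43 and 47, and Col7a1, which forms the anchoring fibrils of skin, 67 and 84. Every gene of these classes other than Col13a1 had an interval that spanned equality. The interval of Col8a1 ran from -0.41 to 0.09 and that of Col28a1 from -0.49 to 0.77, so that modest differences were not detectable at this depth.

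Shares of collagen counts within a library need no scaling between libraries. Fibrillar genes held 39.4% of collagen counts in the wild type (39.1 to 39.6) and 47.2% in knockout (46.9 to 47.4). Type IV was at 28.8% in wild type and 24.5% in knockout, and type VI was at 24.0% and 21.3%. FACIT genes held 2.79% and 2.85%, with overlapping intervals, and multiplexins 4.29% and 3.51%. With Col3a1 left out, fibrillar genes held 24.2% (24.0 to 24.5) and 26.9% (26.7 to 27.2), type IV 36.1% and 33.9%, and type VI 30.0% and 29.4%. Leaving Col3a1 out put type IV first in both libraries, and the fibrillar share was still the larger in the knockout library.

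**Figure D3:**
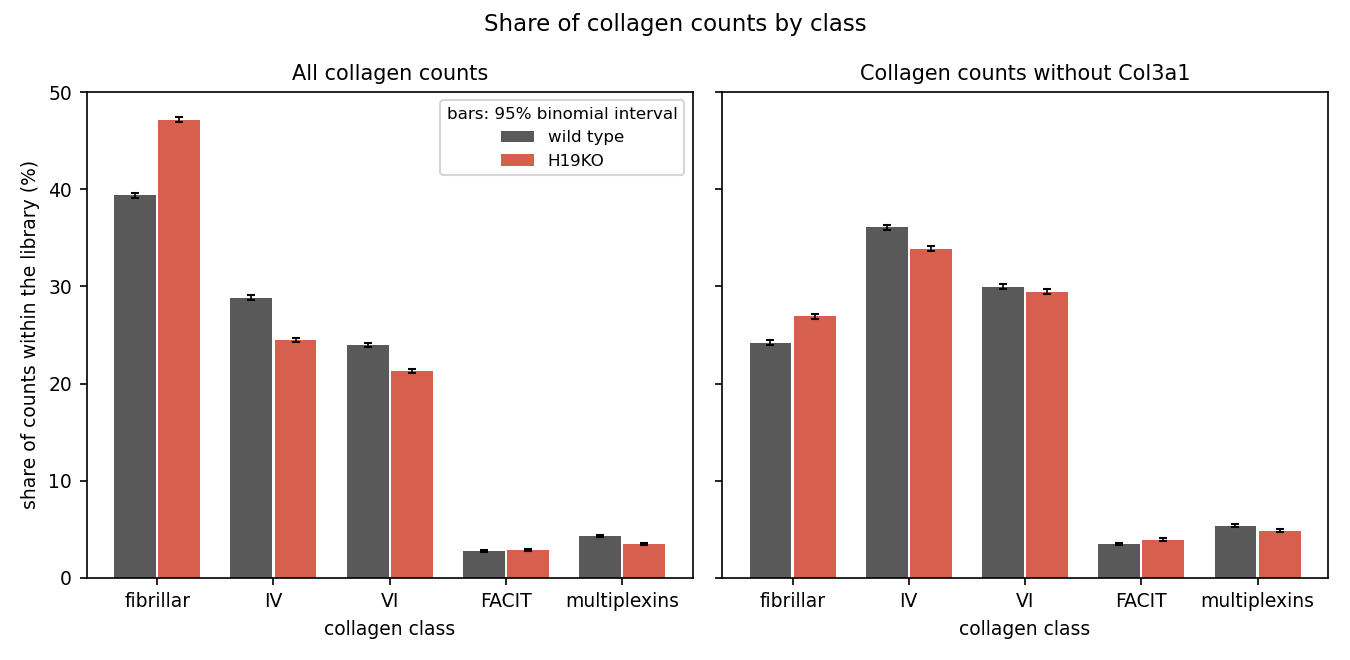
Share of collagen counts held by each of the 5 largest classes in the wild-type and knockout libraries, with all collagen counts on the left and without Col3a1 on the right; bars on the columns are 95% binomial intervals. The fibrillar share is 39.4% and 47.2% on the left and 24.2% and 26.9% on the right.

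Enzymes that make collagen were described from a list of genes, and the chain-modifying group was near the background in both directions. Of 20 genes for chain modification and folding, 6 were higher, 6 lower and 8 spanned equality, with a median log2 ratio of -0.03. That is 30% each way, against 22.2% and 24% of genes tested (29.4% and 32% at 50 CPM or more). P4hb, a subunit of the prolyl hydroxylase that stabilises the helix, had a log2 ratio of 0.19 (0.16 to 0.21). Serpinh1, the collagen-specific chaperone HSP47, had -0.12 (-0.15 to -0.09). The lysyl hydroxylase gene Plod2 had 0.11 (0.08 to 0.15) and the cyclophilin gene Ppib 0.02 (-0.02 to 0.06). None lay beyond 1.5-fold.

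Genes for secretion, propeptide cleavage and cross-linking leaned higher. Of 18, 17 had at least 1 CPM, and their median log2 ratio was 0.08. Of the 17, 10 were higher (58.8%, against 22.2% of genes tested), 4 were lower (23.5%, against 24%) and 3 spanned equality. At 50 CPM or more, which most of these genes reached, 29.4% of genes tested were higher and 32% lower. Sparc, a collagen-binding matrix protein, had a log2 ratio of 0.16 (0.13 to 0.18), the procollagen processing enhancer Pcolce 0.31 (0.26 to 0.36) and the export factor Mia3 -0.09 (-0.14 to -0.04). The peroxidase Pxdn, which cross-links type IV collagen, had 0.06 (0.01 to 0.11). Beyond 1.5-fold were the lysyl oxidase relatives Loxl3, with 365 and 692 counts (0.93, 0.75 to 1.12), and Loxl4, with 54 and 177 counts (1.71, 1.27 to 2.19). Lox itself, named after its values were seen, had 1155 and 1652 counts (0.52, 0.41 to 0.63).

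Collagen receptors were mixed. Of 10 genes, 9 had at least 1 CPM, with 4 higher, 2 lower and 3 spanning (22.2% higher and 24% lower over all genes tested), and a median log2 ratio of 0.08. The integrin subunits Itgb1 and Itga1 stood at 0.08 (0.05 to 0.11) and 0.05 (-0.03 to 0.13). The discoidin domain receptors went apart, with Ddr2, which binds fibrillar collagen, at 0.36 (0.30 to 0.42) and Ddr1 at -0.24 (-0.37 to -0.12). Lair1, an inhibitory collagen receptor of leukocytes, had 135 and 255 counts (0.92, 0.62 to 1.24). Of 15 other basement membrane genes 14 had at least 1 CPM, with 6 higher, 3 lower and 5 spanning against the same shares, and a median of 0.02. The proteoglycan Hspg2 had -0.02 (-0.06 to 0.02) and the laminin chains Lamb1 -0.15 (-0.20 to -0.11), Lamc1 0.05 and Lama1 0.40 (0.36 to 0.45).

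**Figure D4:**
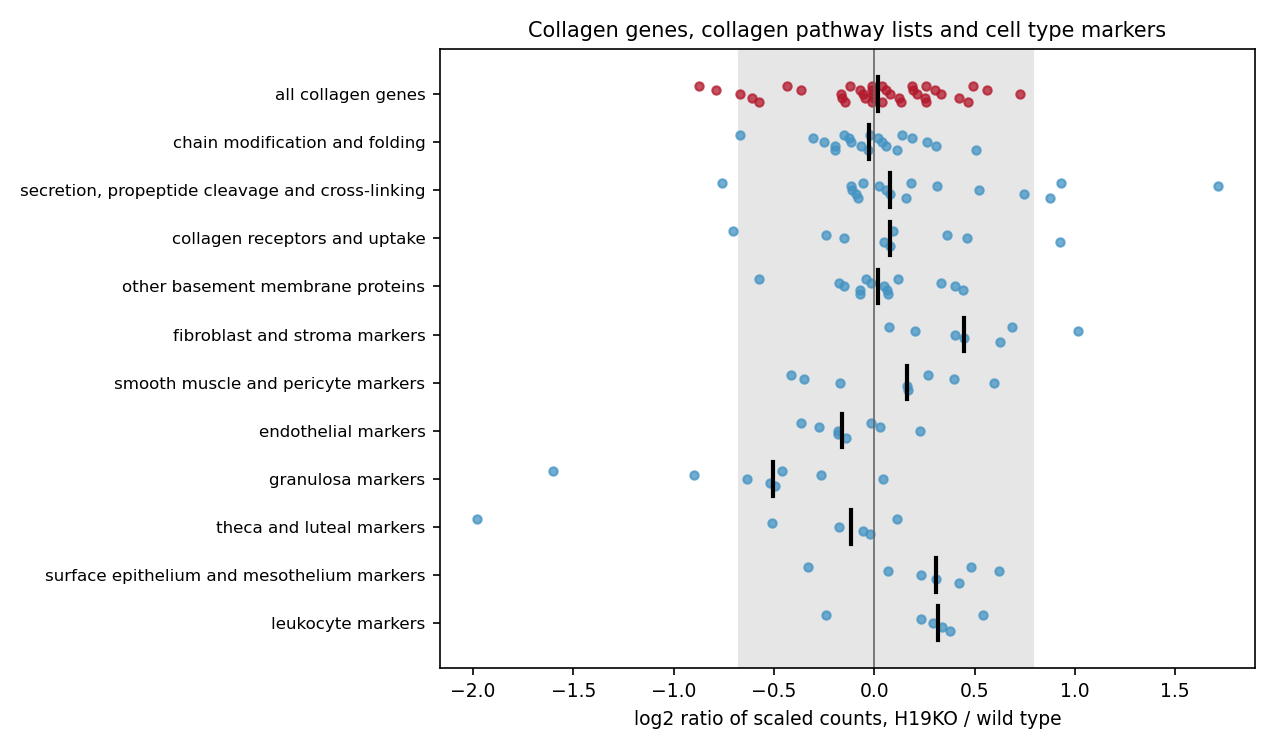
Log2 ratio, knockout over wild type, of each measured gene in the collagen set, the collagen pathway lists and the cell type marker lists other than cartilage, bone and tendon; black bars are medians and the grey band holds the central 95% of all genes tested, -0.67 to 0.79. Medians are 0.02 for collagen genes, 0.45 for fibroblast and stroma markers and -0.51 for granulosa markers.

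Markers of other ovarian cell types differed as well. Of 8 granulosa markers 7 were lower and 1 higher, against 24% and 22.2% of genes tested, with a median of -0.51 and sums of 2711 and 2060 CPM. The most abundant of them, Inha, Nr5a2, Inhbb and Hsd17b1, stood at log2 ratios of -0.50, 0.04, -0.90 and -0.27. Cyp19a1, the aromatase of oestrogen synthesis, had 1052 and 345 counts (log2 ratio -1.599, -1.78 to -1.42). Of 8 endothelial markers 4 were lower and 1 higher, with a median of -0.16 and sums of 682 and 602 CPM. Cdh5, Kdr, Pecam1 and Emcn, the most abundant, stood at log2 ratios of -0.27, -0.18, -0.36 and 0.03. The 11 lower collagen genes were Col4a1, Col4a2, Col18a1, Col11a1, Col27a1, Col11a2, Col6a1, Col6a2, Col6a4, Col6a6 and Col13a1. Of the other type IV genes and multiplexins, Col4a3, Col4a4, Col4a5, Col4a6 and Col15a1 spanned equality. The part of granulosa and endothelial cells in those results was not tested. Theca and luteal markers had 5 of 6 lower and 1 higher, with sums of 16968 and 16003 CPM. The most abundant of them, Hsd3b1, Cyp11a1, Star and Prlr, stood at log2 ratios of -0.06, -0.02, 0.11 and -0.18. The androgen synthesis gene Cyp17a1 had 11243 and 2834 counts (log2 ratio -1.98, -2.04 to -1.92). Surface epithelium markers had 5 of 7 higher and 1 lower, with sums of 166 and 193 CPM. Lgr5, Upk3b, Upk1b and Krt8, the most abundant, stood at log2 ratios of -0.33, 0.62, 0.42 and 0.23. Leukocyte markers had 5 of the 6 measured of 7 higher and 1 lower, with sums of 550 and 700 CPM. Cd74, Lyz2, Csf1r and Cd68, the most abundant, stood at log2 ratios of 0.38, 0.54, -0.24 and 0.23. Each of these counts stands beside the same shares of genes tested, 22.2% higher and 24% lower. At 50 CPM or more, a level that all 6 theca and luteal markers reached, the shares were 29.4% and 32%. None of the listed markers of these types had 0 counts in either library.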

How the data were processed

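The table holds the authors' deposited whole-number counts per gene symbol for 2 ovary libraries. Per the labels' protocols, they were ribosomal RNA-depleted, stranded, paired-end libraries. STAR 2.5.0a, Cufflinks 2.2.1, DESeq2 1.0.0 and mm10 are named in the submitters' processing notes, without roles. Which program counted, with which annotation and strand, is not given in the sources used here. Whether reads of exons that overlap on opposite strands were kept apart is therefore not known. For collagen genes these overlaps covered at most 6.07% of exon length (Col9a3 with Tcfl5).

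Scaling was by TMM in edgeR 4.0.16, and 0.5 was added to each scaled count before the log2 ratio was taken. Intervals of ratios are exact conditional binomial (Clopper-Pearson) at 95%, those of levels are exact Poisson, and those of differences between log2 ratios use Woolf's formula. All cover counting error only. Genes whose mean reached 1 CPM were tested, without 27 rows that carry dates in place of symbols. All 44 collagen symbols matched GENCODE M21 (GRCm38), which gave coordinates and lengths. Levels per kb used the union of exons, and longest protein-coding transcripts as an alternative added after seeing the data.

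The members, classes, lists and naming rule were chosen with earlier results of these data known. All collagen genes were to be named, and from each other list the most abundant members (at most 4) and those beyond 1.5-fold (at most 4). Scripts were tested on simulated data. Alternatives were 3 other scalings (1 of them DESeq2 1.42.0 size factors), other minimums, point ratios, means or sums of members, and 5 added to each count. Software was R 4.3.3 and Python 3.11.15 with scipy 1.17.1, numpy 2.4.6, matplotlib 3.10.9 and pandas 2.3.3.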

Additional observations from a re-analysis of the deposited data

How the results depend on the processing

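No paired analysis was possible because there was 1 library of each genotype, and for the same reason no library could be left out. Single collagen genes gave 152 values under the alternatives, of which 147 kept the same call. In 5 values the sign of a ratio near 0 turned: Col5a1 (0.0006), Col12a1 (0.0005), Col4a5 (0.0041) and Col23a1 (0.0072) under total count scaling, and Col23a1 without the 10 most abundant genes. All 5 had intervals that spanned equality. Calls changed for Col6a2 (-0.05, then spanning equality) and Col22a1 (0.48) and Col15a1 (0.09), then higher, under total count scaling, and Col22a1 (0.47) and Col15a1 (0.08), then higher, without the 10 most abundant genes. By the point ratio 19 collagen genes were above and 19 below equality, and 4 below 1.5-fold, since a point ignores the interval. Above 1.5-fold, the count was 0 under median-of-ratios scaling and 2 with no minimum, which adds Col19a1. Below 1.5-fold it was 0 under total count scaling and 2 under median-of-ratios scaling.

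The median over all collagen genes was -0.0079 with a minimum of 5 CPM, of opposite sign to the main value near 0. For fibrillar collagens it was -0.0314 by the mean, 0.19 with no minimum and 0.36 by summed counts. For transmembrane collagens, whose main value is also near 0, it turned to 0.0072 under total count scaling, 0.000033 without the most abundant genes and 0.11 with no minimum. By the mean of members, secretion and cross-linking genes stood at 0.26, fibroblast markers at 0.49, smooth muscle markers at 0.0825, granulosa markers at -0.60 and theca and luteal markers at -0.44. The causes were not tested. Of 38 levels per kb, 8 moved over 1.5 times with the coding transcript length. Depth limits the low genes: among collagens the interval was 0.044 log2 units wide at its narrowest and 1.599 at its widest.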
